A study of Mus musculus with 4 samples.

Results

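The G1/S cell cycle genes described here are the 6 array genes *Ccnd1*, *Cdk4*, *Cdkn1a*, *Cdkn1b*, *E2f1* and *Rb1*, of 84 genes measured by PCR array in mouse livers. They were chosen by gene symbol, and all 6 had a threshold cycle (Ct) in all 4 samples. Livers came from male C57BL/6J mice that were 2 months old and were kept for 5 weeks on a normal diet (ND, 10% of the kcal from fat) or on a high fat diet (HFD, 60%). On each diet, 3 mice received by gavage, every 2 days, a pool of small RNAs of the plant *Moringa oleifera* (*mol*-miR pool) and 3 did not. The table holds 4 samples, ND and HFD without the pool and ND + *mol*-miR pool and HFD + *mol*-miR pool with it. Each group thus has 1 sample, and the sources do not say whether a sample is 1 liver or several. All directions follow the names of the columns of Ct values, which no gene of the array can check. The fold changes that the authors deposited often run the opposite way, also in HFD vs. ND, and which of the 2 tables has the right direction is not settled, so each signed difference between groups holds only if the columns are named correctly.

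The step from G1 to S phase commits a cell to copy its DNA. Cyclin D1, the product of *Ccnd1*, binds and activates the kinase CDK4 (*Cdk4*), which phosphorylates the retinoblastoma protein (*Rb1*). Unphosphorylated retinoblastoma protein holds back E2F1 (*E2f1*), a transcription factor of the genes for DNA synthesis, and phosphorylation releases it. The inhibitors p21 (*Cdkn1a*) and p27 (*Cdkn1b*) bind cyclin and kinase complexes and slow this step. Most hepatocytes of an adult liver rest outside the cycle and can enter it again after loss of tissue.

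A lower Ct means more template, and 1 cycle was taken as a factor of 2. Levels are given as the Ct of a gene minus the mean Ct of the 5 reference genes of the same plate, *Actb*, *Gapdh*, *Gusb*, *Hprt* and *Hsp90ab1* (the normalized Ct). Each gene had 1 well in each sample, so no value has an error of its own and the groups could not be tested against each other. On GRCm38.p6 the genes lie on chromosomes 7 (*Ccnd1*, 144929931 to 144939831), 10 (*Cdk4*, 127063535 to 127067288), 17 (*Cdkn1a*, 29090979 to 29100722), 6 (*Cdkn1b*, 134920401 to 134925525), 2 (*E2f1*, 154559400 to 154569892) and 14 (*Rb1*, 73192858 to 73325951), and the positions of the amplicons are not given in the sources used here. The levels of different genes were not compared, since the efficiency of each primer pair is not known. The only repeated wells with a Ct were controls. The positive PCR control, a ready-made template, gave a Ct in 7 of 12 wells: 2 wells of the ND plate differed by 0.927 cycles, the 3 wells of ND + *mol*-miR pool lay within 0.106 cycles, and the other plates had 1 well each. Its mean Ct was 17.4 on the ND plate and 21.2 on the HFD plate, and 18.4 (ND) and 22.0 (HFD) on the plates of the pool-treated samples. The reverse transcription control gave a Ct in 2 of 12 wells, both of ND + *mol*-miR pool. The part of these differences between plates in the results was not tested.

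The genomic DNA control well, which detects DNA carried over with the RNA, came at 26.8 cycles in ND and 34.7 in HFD, and with the pool at 28.8 on the ND and 33.4 on the HFD. In ND the 6 genes came between 0.765 cycles (*E2f1*) and 3.13 cycles (*Cdkn1b*) before this control, and in ND + *mol*-miR pool between 1.08 (*Rb1*) and 3.64 (*Cdkn1b*). In HFD they came between 5.27 (*Cdkn1a*) and 10.5 cycles (*Ccnd1*) before it, and in HFD + *mol*-miR pool between 4.21 (*Rb1*) and 8.69 (*Ccnd1*). Both ND samples therefore held the smaller distances, and the ranges of the ND and HFD samples did not overlap. Of the 84 array genes, 63 were less than 3 cycles before the control in ND and 17 in HFD. Set against each gene's own signal, the control signal in ND was 58.8% for *E2f1*, 49.6% for *Cdkn1a*, 47.0% for *Rb1*, 35.7% for *Cdk4*, 12.8% for *Ccnd1* and 11.5% for *Cdkn1b*. In HFD it was between 0.0681% (*Ccnd1*) and 2.59% (*Cdkn1a*). These shares assume that the control and the gene amplify alike. By them, carried-over DNA may make up much of the ND signal of *E2f1*, *Cdkn1a*, *Rb1* and *Cdk4*, whose levels in ND are uncertain. In ND + *mol*-miR pool the same holds for *Rb1* (47.4%), *Cdkn1a* (47.0%) and *E2f1* (34.3%), and to a lesser degree for *Cdk4* (24%). Values with the control signal subtracted are given beside the results that they move most.

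**Figure D1:**
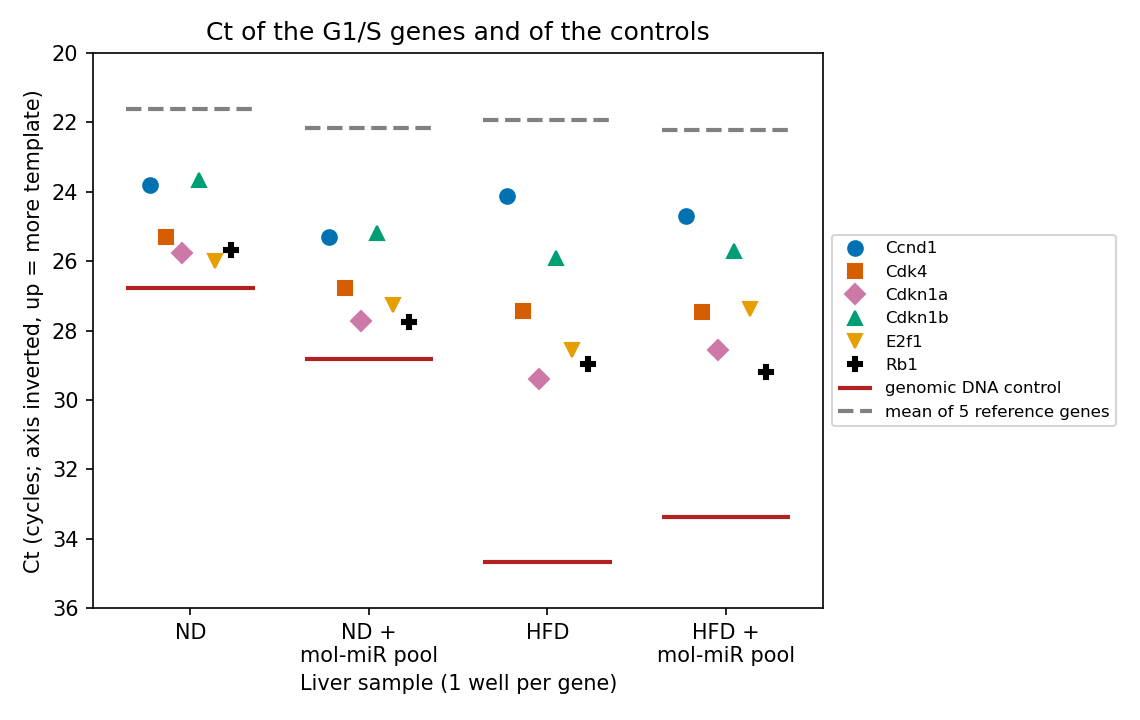
Ct of the 6 genes (symbols), of the genomic DNA control (solid red lines) and the mean of the 5 reference genes (dashed grey lines) in the 4 liver samples, 1 well per gene; the vertical axis is in cycles and inverted. The genes lie within 3.13 cycles of the genomic DNA control in ND and at least 5.27 cycles before it in HFD, while the reference mean stays between 21.6 and 22.2.

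RefSeq start sites of the GRCm38.p6 assembly gave promoter windows for 4 of the 6 genes, of 300 bases from 250 before to 50 after a start. These are *Cdk4*, *Cdkn1b* and *Cdkn1a*, and *E2f1* with a start inside the annotated gene. The sequences are those of *Cdk4* and *Cdkn1b*, the pair whose Ct values kept the most constant distance, and of the second of the 2 listed starts of *Cdkn1a*, the gene with the lowest fold change in HFD vs. ND. They are read 5′ to 3′ on the + strand, with capitals for the E-box CACGTG, the GC box GGGCGG and the CCAAT box on either strand.
Cdk4, chr10:127063285-127063584: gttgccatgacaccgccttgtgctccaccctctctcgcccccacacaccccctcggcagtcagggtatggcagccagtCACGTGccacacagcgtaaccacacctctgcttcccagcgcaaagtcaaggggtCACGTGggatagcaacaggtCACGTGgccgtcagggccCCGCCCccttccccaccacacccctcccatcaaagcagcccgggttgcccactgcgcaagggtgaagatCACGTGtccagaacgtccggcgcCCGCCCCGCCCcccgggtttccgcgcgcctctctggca
Cdkn1b, chr6:134920151-134920450: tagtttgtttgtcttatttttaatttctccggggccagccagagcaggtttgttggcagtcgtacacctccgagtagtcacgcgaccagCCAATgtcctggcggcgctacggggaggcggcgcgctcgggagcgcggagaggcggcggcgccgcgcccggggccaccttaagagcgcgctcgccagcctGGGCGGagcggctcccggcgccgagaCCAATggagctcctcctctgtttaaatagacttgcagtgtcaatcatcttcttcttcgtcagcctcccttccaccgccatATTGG
Cdkn1a, chr17:29093519-29093818: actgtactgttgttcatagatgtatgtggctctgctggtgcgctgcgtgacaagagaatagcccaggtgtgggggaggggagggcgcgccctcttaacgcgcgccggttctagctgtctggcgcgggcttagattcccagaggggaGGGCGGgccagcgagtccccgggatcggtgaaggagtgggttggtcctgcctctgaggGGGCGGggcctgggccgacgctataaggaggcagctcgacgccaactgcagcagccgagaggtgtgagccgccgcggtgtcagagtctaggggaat

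The *Cdk4* window holds 4 E-boxes, whose first bases lie 172, 118, 98 and 11 bases before the start, and 3 GC boxes, of which 2 overlap by 1 base. An E-box stands in 7.15% of the 32851 windows of the table and 4 or more of them in 8 windows (0.0244%). This motif was chosen after the sequences were read. The *Cdkn1b* window has 3 CCAAT boxes and 1 GC box, and this *Cdkn1a* window has 2 GC boxes. A GC box stands in 4 of the 5 windows of these genes, against 35.7% of all windows, and the first *Cdkn1a* window, at the annotated start of the gene, holds none of the motifs searched. The 5 windows had 54.7% to 77.3% G and C, against a median of 52.7% over all windows. The *E2f1* window lies wholly inside the annotated gene, so its motifs are not those at the annotated start. The CCAAT box stands in 37.4% of all windows. The TATA box TATAAA, in 13.6% of all windows, was in none of the 5. None of the 4 E2F motifs searched on both strands (TTTCCCGC, TTTCGCGC, TTTGCCGC and TTTGGCGC, which stand in 2.26% of all windows) was found in these windows, which says nothing of the factor beyond these letters.

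*Ccnd1*, the cyclin, had a Ct of 23.8 in ND and 24.1 in HFD, and of 25.3 (ND) and 24.7 (HFD) with the *mol*-miR pool. Its normalized Ct was 2.20 in both ND and HFD, 2.46 in HFD + *mol*-miR pool and 3.14 in ND + *mol*-miR pool. All gaps between neighbours in this order were under the 0.927 cycles by which the positive control wells of the ND plate differed. That value holds a spread between wells of 1 plate, not between plates or livers. Here and below, a gap above it is thus not shown to be a difference between groups.

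*Cdk4*, the kinase, had a Ct of 25.3 in ND, 26.8 in ND + *mol*-miR pool and 27.4 in both HFD samples. Its normalized Ct was 3.68 in ND and 5.50 in HFD, and with the pool 4.61 and 5.22, so the level was highest in ND and lowest in HFD. The gaps among the other 3 samples were under 0.927 cycles.

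*Cdkn1a*, the gene of p21, had a Ct of 25.8 in ND and 29.4 in HFD, and of 27.7 (ND) and 28.6 (HFD) with the *mol*-miR pool. Its normalized Ct was 4.15 in ND and 7.45 in HFD, against 5.58 and 6.32 with the pool. This is the widest range among the 6 genes, and only the gap between the pool-treated samples (0.745) was under 0.927 cycles.

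*Cdkn1b*, the gene of p27, had a Ct of 23.6 in ND and 25.9 in HFD, and of 25.2 (ND) and 25.7 (HFD) with the *mol*-miR pool. Normalized, these were 2.04 in ND, 3.98 in HFD, and 3.03 and 3.46 with the pool. The order of the samples was that of *Cdk4*, and ND stood apart from the next sample by 0.987 cycles.

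*E2f1*, the transcription factor, had a Ct of 26.0 in ND and 28.6 in HFD, and of 27.3 (ND) and 27.4 (HFD) with the *mol*-miR pool. The normalized Ct was 4.398 in ND and 6.64 in HFD, and with the pool 5.13 on the ND and 5.15 on the HFD. The pool-treated samples of both diets differed by 0.020 cycles, and HFD came 1.49 cycles after them.

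*Rb1*, which encodes the retinoblastoma protein, had a Ct of 25.7 in ND and 29.0 in HFD, and of 27.7 (ND) and 29.2 (HFD) with the *mol*-miR pool. Its normalized Ct was 4.07 in ND and 7.02 in HFD, and 5.59 and 6.95 with the pool. Both HFD samples were alike to 0.078 cycles and lay more than 1.35 cycles after the ND samples. Over the 6 genes, 11 of the 18 gaps between neighbouring samples were under 0.927 cycles.

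In HFD vs. ND, 5 of the 6 genes were downregulated (3 of them turned with the array's median Ct as the reference) and *Ccnd1* was not regulated, where a fold change below 0.5 counts as downregulated and one above 1.5 as upregulated. The log2 fold change was -3.30 for *Cdkn1a*, -2.95 for *Rb1*, -2.24 for *E2f1*, -1.94 for *Cdkn1b* and -1.82 for *Cdk4*, whereas it was 0.01 for *Ccnd1*. By the names of the columns, the levels in HFD were thus 9.83 times lower for *Cdkn1a* and 3.53 times lower for *Cdk4*, a direction opposite to that in the deposited fold changes. Of the 84 genes, 72.6% were below 0.5 and 3.57% above 1.5, and the median log2 fold change was -2.53 over the array and -2.09 over the 6 genes. The count of downregulated G1/S genes was therefore near that of the array, and *Ccnd1* ranked 77 of 84 from the lowest. The genomic DNA control came 7.88 cycles later in HFD than in ND.

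The calls of the 5 downregulated genes held with each single reference gene. That of *Ccnd1* did not, since it was upregulated with *Hprt* alone (0.75) and ranged down to -0.96 with *Actb* alone. When the median Ct of all detected array genes served as reference, *Cdkn1a* (-0.61) and *Rb1* (-0.26) remained lower and *Cdk4* (0.87), *Cdkn1b* (0.74) and *E2f1* (0.45) were higher in HFD, as was *Ccnd1* (2.69). With the genomic DNA control subtracted, *E2f1* moved most, from -2.24 to -1.12, *Cdkn1a* to -2.49 and *Rb1* to -2.20, while *Cdkn1b* (-1.91) and *Ccnd1* (0.07) moved by less than 0.1, and the 5 genes were still below 0.5.

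**Figure D2:**
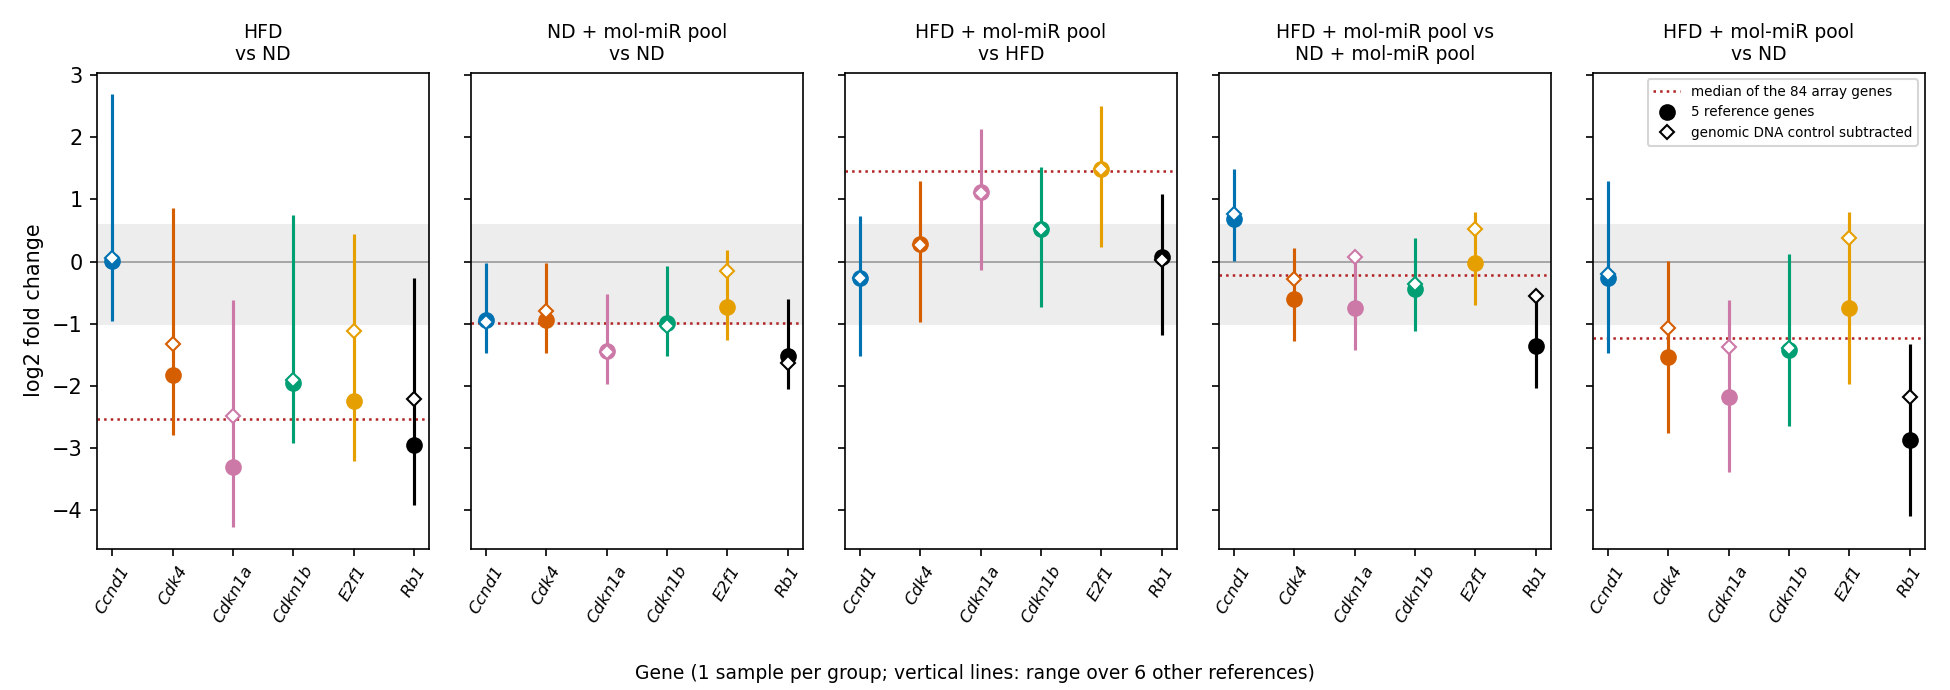
Log2 fold change of the 6 genes in 5 comparisons, 1 sample per group; filled circles are normalized to the 5 reference genes, open diamonds have the genomic DNA control subtracted, vertical lines span 6 other references (each reference gene alone, and the array's median Ct), the grey band lies between the limits 0.5 and 1.5, and the dotted line is the median of the 84 array genes. *Ccnd1* lies at 0.01 in HFD vs. ND while the other genes lie between -3.30 and -1.82 (*Cdk4*, *Cdkn1b* and *E2f1* above 0 with the array's median Ct), and for the pool on the HFD only *Cdkn1a* and *E2f1* lie above the band.

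The comparison of ND + *mol*-miR pool with ND gives the difference with the pool on the normal diet. All 6 genes were lower, with log2 fold changes between -0.73 (*E2f1*) and -1.52 (*Rb1*), although *E2f1* turned to 0.19 with the median Ct as the reference and to 0.009 with *Gapdh* alone. *Rb1* (-1.52) and *Cdkn1a* (-1.43) were below 0.5. *Cdkn1b* (-0.99), *Ccnd1* (-0.94) and *Cdk4* (-0.93) lay just inside the limit, with fold changes of 0.505, 0.521 and 0.524, and *E2f1* had 0.604. On the array 48.8% of the genes were below 0.5 and 4.76% above 1.5, with a median of -0.99, and the median of the 6 genes was -0.96. The count of the 6 genes depended on the reference. It was 0 below 0.5 with *Gapdh* alone or with the median Ct, 5 with *Hprt* alone and all 6 with *Hsp90ab1* or *Actb* alone. The count of the array moved in the same way. From 41 genes below 0.5 with the mean of the reference genes, it fell to 9 with *Gapdh* alone and 3 with the median Ct. It rose to 48 with *Hprt*, 60 with *Hsp90ab1* and 56 with *Actb* alone. The genomic DNA control came 2.05 cycles later in ND + *mol*-miR pool, and subtracting it moved *E2f1* from -0.73 to -0.15 and took *Cdkn1b* (-1.03) below 0.5, which made 3 of the 6 genes.

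The difference with the pool on the high fat diet comes from HFD + *mol*-miR pool against HFD, in which *E2f1* and *Cdkn1a* were upregulated and the other 4 genes were not regulated. The level of *E2f1* was 2.81 times higher (log2 fold change 1.49) and that of *Cdkn1a* 2.18 times higher (1.12, which turned to -0.13 with the median Ct as the reference). *Cdkn1b* (0.52), *Cdk4* (0.28), *Rb1* (0.08) and *Ccnd1* (-0.27) lay between the limits. Of the 84 genes 84.5% were above 1.5 and 1.19% below 0.5, so the share of G1/S genes above 1.5 was lower than that of the array. Their median log2 fold change was 0.40 against 1.46 for the array. From the lowest of the 84 genes, *Ccnd1* ranked 4, *Rb1* 6, *Cdk4* 8, *Cdkn1b* 11, *Cdkn1a* 32 and *E2f1* 45. This order of genes does not depend on the reference. *E2f1* stayed above 1.5 with each reference gene alone, but lay inside the limits with the array's median Ct (0.24). *Cdkn1a* stayed above 1.5 with *Gusb*, *Gapdh* or *Actb* alone but not with *Hprt* (0.32) or *Hsp90ab1* (0.35). With these 2 references *Ccnd1* was below 0.5 (-1.07 and -1.04), so that 1 gene was upregulated and 1 downregulated. On the array, 43 genes were above 1.5 and 5 below 0.5 with *Hprt* alone, and 46 and 5 with *Hsp90ab1* alone. With *Gapdh* or *Actb* alone all 6 genes were above 1.5, as were 82 of the 84 array genes with each. The share of G1/S genes above 1.5 was then not lower than that of the array. *Gapdh* itself had a Ct of 20.0 in HFD and 21.3 with the pool, *Actb* 24.1 and 25.3, *Hsp90ab1* 18.2 and 17.7, and *Hprt* 22.9 and 22.4. The genomic DNA control came 1.27 cycles earlier in HFD + *mol*-miR pool, and subtracting it moved *Rb1* from 0.08 to 0.03 and left *E2f1* at 1.49.

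Between the diets with the pool given on both (HFD against ND), *Ccnd1* was above 1.5 (log2 fold change 0.68) and *Rb1* below 0.5 (-1.35). *Cdkn1a* (-0.75), *Cdk4* (-0.61), *Cdkn1b* (-0.44) and *E2f1* (-0.02) were not regulated. On the array 23.8% of the genes were above 1.5 and 34.5% below 0.5. *Ccnd1* was at or above 0 with all 6 other references, from 0.003 with *Hsp90ab1* alone to 1.496 with *Gapdh* alone, and *Rb1* was below 0 with all of them, from -2.03 to -0.54. With the genomic DNA control subtracted, *Rb1* went to -0.55, which is inside the limits, *Cdkn1a* turned to 0.08 and *E2f1* to 0.52, and *Ccnd1* stayed above 1.5 (0.77).

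Set against ND without the pool, a comparison that shares its samples with the others, HFD + *mol*-miR pool had 4 downregulated genes. These were *Rb1* (-2.87), *Cdkn1a* (-2.17), *Cdk4* (-1.54) and *Cdkn1b* (-1.42), whereas *E2f1* (-0.75) and *Ccnd1* (-0.26) were not regulated. The array had 53.6% below 0.5 and 14.3% above 1.5. *Rb1* was the one gene of the 6 that stayed below 0.5 with all 6 other references. Subtracting the genomic DNA control turned *E2f1* from -0.75 to 0.37 and moved *Rb1* from -2.87 to -2.17 and *Cdkn1a* from -2.17 to -1.38, the last 2 still below 0.5.

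Differences of Ct between 2 wells of a plate do not depend on the reference genes, so the 15 pairs of the 6 genes were followed over the samples. The 6 genes spanned 2.36 cycles in ND and 5.25 in HFD, and with the pool 2.57 (ND) and 4.48 (HFD). Subtraction of the genomic DNA control from the pairs was an alternative added after seeing the data. With it the span was 3.465 cycles in ND and 5.29 in HFD, and with the pool 3.37 (ND) and 4.56 (HFD), so the ND and HFD samples differed less. The kinase gene *Cdk4* and the inhibitor gene *Cdkn1b* kept the most constant distance, with *Cdkn1b* 1.64 cycles earlier in ND and 1.52 in HFD, and 1.59 (ND) and 1.75 (HFD) with the pool, a range of 0.236 cycles. With the control subtracted this range was 0.579, again the smallest of the 15, with that of *Cdkn1a* and *Cdkn1b* close to it (0.593).

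The cyclin and its kinase did not keep their distance. *Ccnd1* was 1.48 cycles earlier than *Cdk4* in ND and 1.47 in ND with the pool, but 3.30 in HFD and 2.75 in HFD with the pool. The widest range was that of *Ccnd1* and *Cdkn1a*, whose distance was 1.95 cycles in ND and 5.25 in HFD, and 2.44 (ND) and 3.86 (HFD) with the pool. *Ccnd1* was thus higher against each of the other 5 genes in HFD than in ND, by 1.83 to 3.30 cycles, and by 1.18 to 2.55 cycles with the genomic DNA control subtracted.

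*E2f1* and *Rb1*, the factor and the protein that binds it, also changed in their distance. *Rb1* was 0.325 cycles earlier than *E2f1* in ND, and later by 0.388 cycles in HFD, and with the pool by 0.466 on the ND and 1.80 on the HFD. The ratio of *Rb1* to *E2f1* was thus highest in ND and lowest in HFD + *mol*-miR pool. The shift between these samples was 2.13 cycles, and 2.55 with the genomic DNA control subtracted. Without subtraction the inhibitor genes *Cdkn1a* and *Cdkn1b* moved apart as well, with *Cdkn1b* 2.11 cycles earlier in ND and 3.47 in HFD. Subtracting the control brought these values to 2.92 and 3.50. The range over the samples then fell from 1.35 to 0.593 cycles, near that of *Cdk4* and *Cdkn1b* (0.579).

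**Figure D3:**
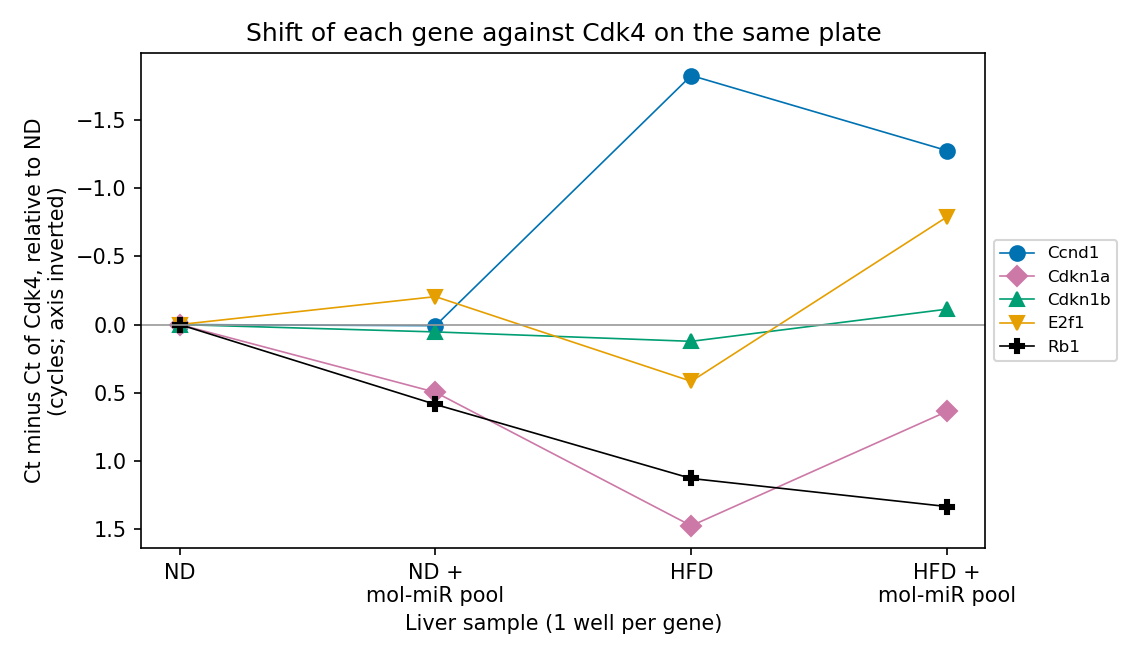
Ct of 5 genes minus the Ct of *Cdk4* in the same sample, relative to ND, in cycles on an inverted axis, 1 well per gene; lines join the samples only to guide the eye. *Cdkn1b* stays within 0.123 cycles of the zero line, *Ccnd1* lies 1.83 cycles above it in HFD, and *Rb1* and *Cdkn1a* came later relative to *Cdk4* than in ND, below the line, in the other 3 samples.

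Among the 81 other array genes with a Ct in all samples, the profile of Ct over the 4 samples most like that of each gene was sought by the root mean square difference after centring. For *Cdk4* it was *Cdkn1b* (0.086 cycles), and the reverse. *Ccnd1* was most like *Fasn* (0.218), the fatty acid synthase, with a Ct of 22.6 in ND and 22.4 in HFD, and 23.8 (ND) and 22.9 (HFD) with the pool. *Ccnd1* was 0.802 cycles from *Cdk4*, the nearest of the G1/S genes. *E2f1* was most like *Lpl* (0.143), the lipoprotein lipase, with *Src* next (0.169). *Cdkn1a* was nearly as close to *Creb1* (0.173) as to *Lipe* (0.172), the hormone-sensitive lipase. The nearest profiles to *Rb1* were those of *Cdkn1a* and *Axin1*, a scaffold protein of Wnt signalling, both at 0.377 cycles. These distances rest on 4 samples with 1 well each, without the genomic DNA control subtracted. In ND *Cdkn1a* (Ct 25.8), *Lipe* (25.5), *Creb1* (25.9), *E2f1* (26.0) and *Src* (26.3) came shortly before that control (26.8).

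The array holds 11 further genes whose products regulate the G1/S genes or bind their proteins (*Cebpa*, *Creb1*, *Foxo1*, *Jun*, *Klf4*, *Lmna*, *Mapk14*, *Sirt1*, *Src*, *Tcf7l2* and *Vdr*). In HFD vs. ND, 7 of the 11 were below 0.5 (72.6% of the array) and 0 above 1.5, with a median log2 fold change of -2.48 (array -2.53). The lowest were *Vdr* (-6.23), the vitamin D receptor, and *Klf4* (-4.12), a transcription factor that can induce *Cdkn1a*. The highest were *Tcf7l2* (-0.39), a factor of Wnt signalling with *Ccnd1* among its targets, and *Cebpa* (-0.41), which restrains growth of hepatocytes. In ND + *mol*-miR pool vs. ND, 6 were below 0.5 (48.8% of the array) and 0 above 1.5. With the pool on the HFD, 10 were above 1.5 and 0 below 0.5 relative to HFD, where 84.5% of the array was above 1.5, and their median of 1.11 lay below that of the array (1.46). Between the pool-treated samples, HFD against ND, 2 were above 1.5 (23.8% of the array) and 2 below 0.5 (34.5%). In ND *Mapk14*, *Sirt1*, *Vdr*, *Creb1*, *Jun* and *Src* had a Ct between 25.2 and 26.3, shortly before the genomic DNA control (26.8). In ND with the pool *Vdr* had 28.7, against 28.8 for the control. The levels of these genes there, their falls and the counts that hold them are therefore uncertain.

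The 4 array genes fixed as hepatocyte markers (*Agt*, *Nr0b2*, *Ppara* and *Nr1h3*) had a Ct in all samples, between 20.7 and 26.7, and their summed level was a normalized Ct of -1.34 in ND and -0.71 in HFD, and -1.04 (ND) and -1.81 (HFD) with the pool. All 6 adipocyte markers (*Adipoq*, *Lep*, *Retn*, *Fabp4*, *Adig* and *Cfd*) had a Ct too, with a summed normalized Ct of 0.41 in ND and 2.95 in HFD, and -0.13 and -0.66 with the pool. The sums with the pool were set by *Cfd*, with a normalized Ct of 3.06 in ND, 0.39 in ND with the pool and -0.42 in HFD with the pool, while the other 5 markers were at lower levels in each of the other samples than in ND (*Adipoq* 4.25 in ND and 10.6 in HFD, and 6.00 and 7.73 with the pool). In ND *Retn* (0.506 cycles), *Adipoq* (0.914), *Lep* (1.22) and *Adig* (1.39) came shortly before the genomic DNA control. Their levels in ND, and the falls from them, are therefore uncertain. In ND with the pool *Retn* came 0.002 cycles before the control. Of the brown adipocyte markers, *Prdm16* came after this control in both ND samples. *Ucp1* came 0.963 cycles (ND) and 0.634 cycles (ND with the pool) before it. No firm level above carried-over DNA can thus be given for either there, nor for *E2f1* in ND (0.765 cycles before the control). In HFD *Prdm16* came 0.725 and *Ucp1* 2.37 cycles before the control. In bulk samples a change in the share of a cell type and a change of RNA per cell cannot be told apart, and the part of other cell types in the results was not tested.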

How the data were processed

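Liver RNA was measured with the Mouse Adipogenesis RT2 Profiler PCR Array with SYBR Green detection on a real-time instrument. The authors deposited a score per well, the Ct as exported and without normalization, for 96 wells and 4 samples. The columns named for the low-fat diet were assigned to the ND samples. The threshold settings and the Ct limit are not given in the sources used here. A second table, with fold changes that the authors made for 4 comparisons, was not used. Its directions are often opposite to those from the Ct columns.

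Missing values and Ct values above 35 were set to 35, which touched none of the 6 genes. The mean Ct of the 5 reference genes was subtracted, and differences between samples were taken as negative log2 fold changes. The limits 1.5 and 0.5 follow the methods of the study. The genes named were the 6 G1/S genes, the most similar profiles, the listed regulators (the 2 lowest and 2 highest in HFD vs. ND), the markers, the references and the controls. The genes and lists were chosen with earlier results of these data known. Alternatives were 6 other references, no Ct limit or a limit of 32, fold limits of 2 and 0.5, and subtraction of the genomic DNA control signal (2 to the power of minus Ct) from genes and references. All gene names and promoter windows come from RefSeq tables of GRCm38.p6. Calculations were tested on simulated data and run in Python 3.11.15 with numpy 2.4.6, pandas 2.3.3 and matplotlib 3.10.9.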

Additional observations from a re-analysis of the deposited data

Results flagged for a closer look

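For 5 of the 6 genes the log2 fold change with the *mol*-miR pool was below 0 on the ND and above 0 on the HFD, and the difference between the diets was not tested. *Cdkn1a* had -1.43 on the ND and 1.12 on the HFD, each past a fold limit. *E2f1* had -0.73 and 1.49. The other values were -0.93 and 0.28 for *Cdk4*, -0.99 and 0.52 for *Cdkn1b*, and -1.52 and 0.078 for *Rb1*. The array moved in the same way, with a median of -0.99 on the ND and 1.46 on the HFD. The signs depended on the reference. With *Hprt* or *Hsp90ab1* alone *Cdk4*, *Cdkn1b* and *Rb1* were below 0 on the HFD too, which left *Cdkn1a* and *E2f1*. With *Gusb* alone *Cdk4* (-0.093) and *Rb1* (-0.299) were below 0 on the HFD too. With the array's median Ct as the reference, none of the 5 genes changed sign between the diets. *Cdkn1a* was then below 0 on both (-0.515 on the ND and -0.130 on the HFD), as were *Cdk4*, *Cdkn1b* and *Rb1*. *E2f1* was above 0 on both (0.187 and 0.237). It was also above 0 on both diets with *Gapdh* alone (0.009 on the ND). With 1 sample per group, no sample could be set against others of its group.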

How the results depend on the processing

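No paired analysis was possible because each group has 1 sample. The Ct limits moved none of the 6 genes, and the fold limits of 2 and 0.5 changed the count of regulated genes between the pool-treated diets alone, from 2 to 1. When the median Ct of all detected array genes served as reference, HFD vs. ND had 3 regulated genes, all higher (*Ccnd1*, *Cdk4* at 0.87 and *Cdkn1b* at 0.74), with *E2f1* turned to 0.45, ND + *mol*-miR pool vs. ND had 0, HFD + *mol*-miR pool vs. HFD had 2, both lower, with *Cdkn1a* turned to -0.13, the pool-treated diets (HFD against ND) had 1, and HFD + *mol*-miR pool vs. ND had 3, 2 of them higher, with *Cdkn1b* turned to 0.006. The last comparison also had 3, 2 of them higher, with *Gapdh* alone, which turned *Cdk4* to 0.016 and *Cdkn1b* to 0.13. In ND + *mol*-miR pool vs. ND the count was 5 with *Hprt* alone, 6 with *Hsp90ab1* or *Actb* alone and 0 with *Gapdh* alone. In HFD + *mol*-miR pool vs. HFD it was 6 with *Gapdh* or *Actb* alone. Between the pool-treated diets it was 4 with *Hsp90ab1* alone and 1 with the genomic DNA control subtracted. The cause of these shifts was not tested. Elsewhere the count stayed within 1.5 times that reported, but its split could differ, as between the pool-treated diets with *Gapdh* alone (2 higher, 0 lower) or *Gusb* alone (0 higher, 3 lower). The array there had 44 above 1.5 and 23 below 0.5 with *Gapdh* alone, and 7 and 36 with *Gusb* alone. Precision is limited by 1 well and 1 sample per group.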
